A study of Mus musculus with 2 samples.

Results

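The genes described here are 10 astrocyte and Bergmann glia genes, Sox9, Fabp7, Slc1a2, Slc1a3, Glul, Aldh1l1, Gdf10, S100b, Gfap and Aqp4, out of 21670 protein-coding genes on the autosomes and the X chromosome. They were chosen by cell type knowledge with their promoter peak values in these data already known, so every count and value of a peak over them is a description and carries no test. DNase-seq was made from cerebellum of 4-day-old male B6CASTF1/J mice, first-generation hybrids of C57BL/6J and CAST/EiJ, as 2 libraries numbered biological replicates 2 and 1, each with a label that speaks of 3 males. The labels carry 1 donor identifier for both libraries and do not say whether the males were pooled, so the spread between the libraries may be partly technical. The label of replicate 1 names its sequencing instruments and that of replicate 2 names none. Both libraries form 1 group with no treatment, mutant allele or second age, and the labels name no sort of the tissue into cell types. A gene was called open in a library when a peak lay within 500 bp of a start of one of its coding transcripts, and its locus was the gene plus 50 kb on each side.

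Astrocytes take up glutamate and potassium, pass glutamine back to neurons, and wrap blood vessels with endfeet. Bergmann glia are the radial astrocytes of the cerebellar cortex: their fibres guide migrating granule cells and later ensheathe the synapses of Purkinje cells. Several of the genes below, such as those for the glutamate transporter of Bergmann glia and the brain lipid-binding protein, are active in young radial glia, whereas those for the water channel and for the glial filament protein are known for the mature astrocyte. DNase I cuts DNA that is not covered by nucleosomes, and a peak is a short region where the cuts pile up. Fewer cells with an open site and fewer cuts in each such cell cannot be told apart in these libraries.

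The libraries stood apart before any of the 10 genes was considered. Replicate 2 had 131518 peaks with a median value of 0.625, and replicate 1 had 61896 with a median of 0.787, the value being the authors' signal after normalisation for depth. The depth in reads is unknown. Promoters of a list of 12 forebrain genes were open at 12 genes in replicate 2 and at 4 in replicate 1, with summed promoter values of 21.4 and 3.46, whereas 8 hindbrain Hox genes were open at 3 and 5 and summed to 2.85 and 6.93. Granule lineage genes, which mark the labelled tissue, were open at 7 of 8 in replicate 2 and 6 of 8 in replicate 1. Of all genes, 65% and 59.9% were open. Granule lineage values summed to 12.8 in replicate 2 and 7.80 in replicate 1. Zic1 (0.705 and 1.72), Zic2 (1.32 and 1.48) and Atoh1 (0.492 and 0.587) were lower in replicate 2, and Neurod1, Gli1 and Cntn2 were higher. Pax6 was open in replicate 2 alone, and Barhl1 in neither. The part that these differences play in the results below was not tested, and each result is given for each library.

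Sequences at the sites that the results turn on are given here. They are the reference letters of the RefSeq assembly GRCm38.p6, from the C57BL/6J strain, 5′ to 3′ along the transcribed strand of the gene named, and the second parental genome can differ from them. Sox9 and Fabp7, open in both libraries, and Aldh1l1, Gdf10 and S100b, open in replicate 2 alone, are shown upstream of their start, cut off before the first exon, with the Gdf10 window set to the 200 bases before its start. Capitals mark CCAAT or its reverse complement ATTGG, the AP-1 site TGANTCA, the GC box GGGCGG or CCGCCC, the E-box CAGATG as CATCTG, and the CTCF core on either strand.
Sox9 (chr11:112782001-112782200, plus strand): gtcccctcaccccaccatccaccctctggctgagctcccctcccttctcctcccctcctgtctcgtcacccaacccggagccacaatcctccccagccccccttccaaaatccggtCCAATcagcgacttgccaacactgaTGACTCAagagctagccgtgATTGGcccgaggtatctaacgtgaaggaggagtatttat
Fabp7 (chr10:57784721-57784880, plus strand): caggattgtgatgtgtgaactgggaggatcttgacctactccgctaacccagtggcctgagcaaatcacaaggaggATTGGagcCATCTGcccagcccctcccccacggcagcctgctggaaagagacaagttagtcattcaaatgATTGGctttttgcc
Aldh1l1 (chr6:90550621-90550788, plus strand): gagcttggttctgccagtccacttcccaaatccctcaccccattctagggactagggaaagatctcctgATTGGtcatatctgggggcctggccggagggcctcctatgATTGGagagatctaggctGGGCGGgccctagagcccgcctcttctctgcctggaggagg
Gdf10 (chr14:33923387-33923586, plus strand): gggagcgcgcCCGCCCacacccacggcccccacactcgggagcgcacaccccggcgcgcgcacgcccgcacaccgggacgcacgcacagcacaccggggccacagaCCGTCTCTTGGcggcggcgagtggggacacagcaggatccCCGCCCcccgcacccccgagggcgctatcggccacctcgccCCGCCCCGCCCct
S100b (chr10:76253681-76253760, plus strand): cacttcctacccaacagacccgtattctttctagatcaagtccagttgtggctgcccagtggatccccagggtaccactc

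These 4 sites away from the starts are shown because they had a peak in both libraries. The Gfap stretch is the part common to both peaks, and its capitals mark an AP-1 site and TTCCGAGAA, a match to the STAT core TTCNNNGAA. The others are the strongest shared distal peaks of their loci, with capitals at a match to the RBPJ core GTGGGAA in Slc1a3 and to the CTCF core in Glul and Aldh1l1.
Gfap, upstream (chr11:102898601-102898824, minus strand): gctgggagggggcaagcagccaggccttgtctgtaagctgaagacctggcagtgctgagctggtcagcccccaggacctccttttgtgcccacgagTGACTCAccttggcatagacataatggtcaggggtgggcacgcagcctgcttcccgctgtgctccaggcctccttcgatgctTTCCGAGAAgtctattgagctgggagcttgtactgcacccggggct
Slc1a3, beyond the gene's end (chr15:8629301-8629520, minus strand): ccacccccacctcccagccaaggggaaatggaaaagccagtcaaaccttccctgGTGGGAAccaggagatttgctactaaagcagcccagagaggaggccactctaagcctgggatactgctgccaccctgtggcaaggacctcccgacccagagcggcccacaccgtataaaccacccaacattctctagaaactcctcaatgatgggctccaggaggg
Glul, upstream (chr1:153895061-153895200, plus strand): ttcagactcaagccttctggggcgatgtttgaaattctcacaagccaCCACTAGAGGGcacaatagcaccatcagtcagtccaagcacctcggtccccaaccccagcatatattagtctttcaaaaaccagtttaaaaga
Aldh1l1, upstream (chr6:90538061-90538240, plus strand): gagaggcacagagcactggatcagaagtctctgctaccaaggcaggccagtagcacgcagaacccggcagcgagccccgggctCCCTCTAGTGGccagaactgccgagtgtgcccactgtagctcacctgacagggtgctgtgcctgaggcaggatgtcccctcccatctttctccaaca

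All 10 genes had a promoter peak in replicate 2, where 65% of all genes had one, and 5 had one in replicate 1, where 59.9% of all genes did. Sox9, Fabp7, Slc1a2, Slc1a3 and Glul were open in both libraries, against 58.9% of all genes. Aldh1l1, Gdf10, S100b, Gfap and Aqp4 were open in replicate 2 alone, against 6.1% of all genes, and 0 of the 10 were open in replicate 1 alone, against 0.974% of all genes. The 5 genes that replicate 1 lacked were also among the 6 weakest in replicate 2, between 0.419 and 0.805. Slc1a3, at 0.652, lay inside that range. Each library has a longer and a shorter deposited peak list, and the shorter is called the stricter here, although the thresholds are not known. In the stricter deposited list the genes open were 7 in replicate 2 and 4 in replicate 1, against 60.8% and 52.7% of all genes, 4 were open in both, against 52.3%, 3 in replicate 2 alone, against 8.57%, and 0 in replicate 1 alone, against 0.452%. When each library was held to its 61896 strongest peaks, 7 and 5 were open in replicates 2 and 1, against 58.8% and 59.9%, 4 in both, against 56.3%, 3 in replicate 2 alone, against 2.52%, and Slc1a3 in replicate 1 alone, against 3.64%. Of the 7 in the stricter list, Aldh1l1 and S100b had no promoter peak in replicate 1 in either list, and Slc1a3 had one in its less strict list alone.

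**Figure D1:**
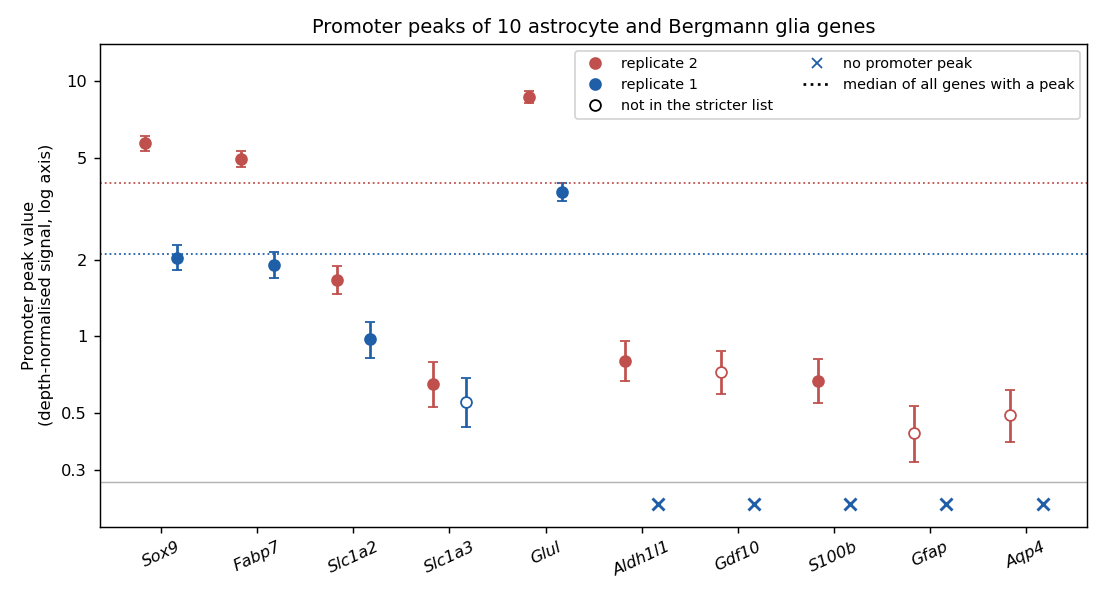
Value of the strongest promoter peak of each gene (depth-normalised signal, log axis) in replicate 2 (red) and replicate 1 (blue), with exact 95% Poisson intervals that cover counting error if 1 step of the value is 1 cut. Crosses stand for no promoter peak, open circles for peaks absent from the stricter list, and dotted lines for the median of all open genes, 4.00 in replicate 2 and 2.11 in replicate 1. Glul, Sox9 and Fabp7 lie above the line of replicate 2, and Glul alone lies above that of replicate 1. The 5 crosses of replicate 1 stand under 5 weak peaks of replicate 2.

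Sox9 and Fabp7 had promoters above the median of all open genes in replicate 2 (4.00) and slightly below it in replicate 1 (2.11). Sox9 (chromosome 11, 112782224 to 112787760, plus strand), a transcription factor that directs neural progenitors to the glial fate, had a strongest promoter peak of 5.71 in replicate 2 and 2.04 in replicate 1, a mean of 3.88 ± 2.60 (SD, n = 2). The exact 95% Poisson intervals, which take each step of the value as 1 cut, were 5.34 to 6.11 in replicate 2 and 1.82 to 2.28 in replicate 1. The peaks ranked at the 65.2nd and 48.0th percentile of promoter values in replicates 2 and 1. The bases printed above are the whole of the replicate 2 peak and lie inside that of replicate 1. Replicate 2 had 4 peaks around the only coding start of Sox9 and replicate 1 had 3. A second upstream peak of Sox9 was at 2.10 in replicate 2 and 1.00 in replicate 1, and the site just downstream of the start had overlapping peaks at 0.632 and 0.712 in replicate 2 and a peak at 0.781 in replicate 1. Of the shared Sox9 promoter sites, that one alone was not higher in replicate 2.

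Fabp7 (chromosome 10, 57784881 to 57788450, plus strand) encodes the brain lipid-binding protein, a fatty acid carrier of radial glia and Bergmann glia. Its promoter peak stood at 4.94 in replicate 2 and 1.91 in replicate 1 (mean 3.43 ± 2.14, SD, n = 2), with intervals of 4.59 to 5.31 and 1.70 to 2.14. These values were at the 59.1st and 44.9th percentile of promoter values in replicates 2 and 1. The peak covers the 5′-most coding start of Fabp7 and ends just before the other. A weaker peak 441 bp upstream of the start, at 0.426, was found in replicate 2 alone and not in its stricter list. In both libraries Fabp7 ranked just below Sox9, and in replicate 1 their intervals overlapped.

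The 3 genes of glutamate handling were all open in both libraries but spanned most of the range. Glul (chromosome 1, 153899944 to 153909723, plus strand), the glutamine synthetase that converts captured glutamate to glutamine, had the strongest promoter of the 10 genes, at 8.71 in replicate 2 and 3.70 in replicate 1 (mean 6.21 ± 3.55, SD, n = 2). These values were at the 83.5th and 82.5th percentile of promoter values of their libraries, the closest pair of ranks among the 5 genes open in both. The window of the Glul start also holds a start of Teddm2, so the peak cannot be assigned to either gene. At the start Glul-202 the strongest peak was at 1.46 in replicate 2 and 0.793 in replicate 1, and at Glul-203 it was at 0.492 in replicate 2, with no peak in replicate 1.

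Slc1a2 (chromosome 2, 102658659 to 102790784, plus strand), the glutamate transporter GLT-1, was open at 2 of 6 distinct coding starts. Its strongest promoter peak had 1.66 in replicate 2 and 0.974 in replicate 1 (mean 1.32 ± 0.487, SD, n = 2). The strongest peaks were not the same site: at the 5′-most start the values were 1.66 and 0.819, and at the site about 0.5 kb further on they were 1.31 and 0.974. The starts of Slc1a2-201 and Slc1a2-203, Slc1a2-205, Slc1a2-209 and Slc1a2-212, inside the gene, had no peak in either library. Slc1a3 (chromosome 15, 8634124 to 8710764, minus strand), the transporter GLAST of Bergmann glia, had the weakest promoter of the 5, at 0.652 in replicate 2 and 0.555 in replicate 1 (mean 0.603 ± 0.0687, SD, n = 2). Its intervals, 0.529 to 0.794 and 0.444 to 0.685, overlapped between the libraries on the deposited scale, which held for none of the other 4. They cover counting error only and depend on how the libraries are scaled. The peak in replicate 1 was absent from the stricter list. Slc1a3 also had the peaks nearest to the limit of the window: a further peak 535 bp from the start in replicate 2 (0.432) and 509 bp in replicate 1 (0.671) lay outside. The peaks nearest to the limit on the inside were those of replicate 2 at 457 bp in Sox9 (0.712) and at 441 bp in Fabp7 (0.426).

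Aldh1l1, Gdf10 and S100b, an enzyme of folate metabolism used to mark astrocytes, a ligand of the TGF-β family made by Bergmann glia and a calcium-binding protein of astrocytes, had promoter peaks in replicate 2 alone. Aldh1l1 (chromosome 6, 90550789 to 90600203, plus strand) had 1 peak at 0.805 in replicate 2, covering 2 of its 3 coding starts, and none in replicate 1. Gdf10 (chromosome 14, 33923587 to 33937983, plus strand) had 2 neighbouring peaks in replicate 2, at 0.725 and 0.712, both outside the stricter list, and none in replicate 1. S100b (chromosome 10, 76253853 to 76261159, plus strand) had a peak of 80 bp at 0.672 in replicate 2, in the stricter list, and none in replicate 1. The intervals of these 3 values in replicate 2, from 0.547 at the lowest to 0.962 at the highest bound, overlapped one another and that of Slc1a3.

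Gfap and Aqp4 had the weakest promoters in replicate 2. Gfap (chromosome 11, 102887336 to 102897200, minus strand), the intermediate filament of astrocytes, had 1 peak of 32 bp at 0.419 in replicate 2, inside the coding part of its first exon about 0.3 kb past the 5′-most start, and none in replicate 1. Aqp4 (chromosome 18, 15389496 to 15410982, minus strand), the water channel of astrocyte endfeet, was open in replicate 2 at 1 of 5 distinct coding starts, that of Aqp4-201, at 0.492, and at 0 of 5 in replicate 1. Neither peak was in the stricter list. At the 5′-most start, used by 5 Aqp4 transcripts, there was no peak in either library, so with that start alone 9 genes were open in replicate 2.

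The order of the promoters in replicate 2 was Glul, Sox9, Fabp7, Slc1a2, Aldh1l1, Gdf10, S100b, Slc1a3, Aqp4 and Gfap. From Glul down to Aldh1l1 no interval overlapped that of its next neighbour, and from Aldh1l1 to Gfap each overlapped the next. In replicate 1 the order was Glul, Sox9, Fabp7, Slc1a2 and Slc1a3, with an overlap between Sox9 and Fabp7. The 5 genes open in both each had the higher value in replicate 2 as deposited. The log2 differences had a median of 1.24 and ran from 0.23 for Slc1a3 to 1.49 for Sox9. Over all 12774 genes open in both the median was 1.02, inside the range of the 5. Dividing each library by its median of shared peaks, a shift of 0.69, left medians of 0.54 for the 5 and 0.33 for all genes, and Slc1a3 was then lower in replicate 2.

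The deposited false discovery rates of the cut rate were read at the promoters. They hold only intervals under 0.05, so they cannot show weaker signal where no peak was called. Within the promoter windows of Aldh1l1, Gdf10, S100b, Gfap and Aqp4, replicate 1 had 0 intervals with an FDR under 0.05. Of the 1321 genes open in replicate 2 alone, 11.7% had such an interval in replicate 1, and of the genes with no promoter peak in replicate 1, 2.87% did. In replicate 2 the smallest FDR at the 5 genes was 2.23e-06 for S100b, 9.75e-06 for Aldh1l1, 0.00167 for Aqp4, 0.00309 for Gdf10 and 0.0317 for Gfap. Gfap was thus close to the limit of 0.05, with 28 intervals covering 52 bases. For Slc1a3, the weakest gene open in both, the smallest FDR was 2.08e-06 in replicate 2 and 0.00234 in replicate 1, and for Glul it was 2.74e-101 and 3.41e-23.

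Across the 10 loci, replicate 2 had 142 peaks and replicate 1 had 81. Of these, 59 peaks of replicate 2 (41.5%) overlapped a peak of replicate 1, where 33.4% of all its peaks did, and 59 peaks of replicate 1 (72.8%) overlapped one of replicate 2, where 71.2% of all its peaks did. In the stricter list were 97 of the 142, where 59.3% of all peaks of replicate 2 were, and 40 of the 81, where 57.6% of all peaks of replicate 1 were. At the 5 genes open in replicate 2 alone, 26 of 40 peaks of replicate 1 (65%) were shared, and at the 5 open in both 33 of 41 (80.5%). The 5 open in replicate 2 alone were uneven: Aldh1l1, Gdf10 and Gfap had 24 locus peaks in replicate 1, and 24 of the 24 overlapped a peak of replicate 2, while S100b shared 2 of 16 and Aqp4 had 0. Of the 24, 19 were distal, meaning over 500 bp from any coding start. Among the distal peaks of replicate 2, the median value was 1.38 for the 39 shared and 0.619 for the 72 not shared.

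**Figure D2:**
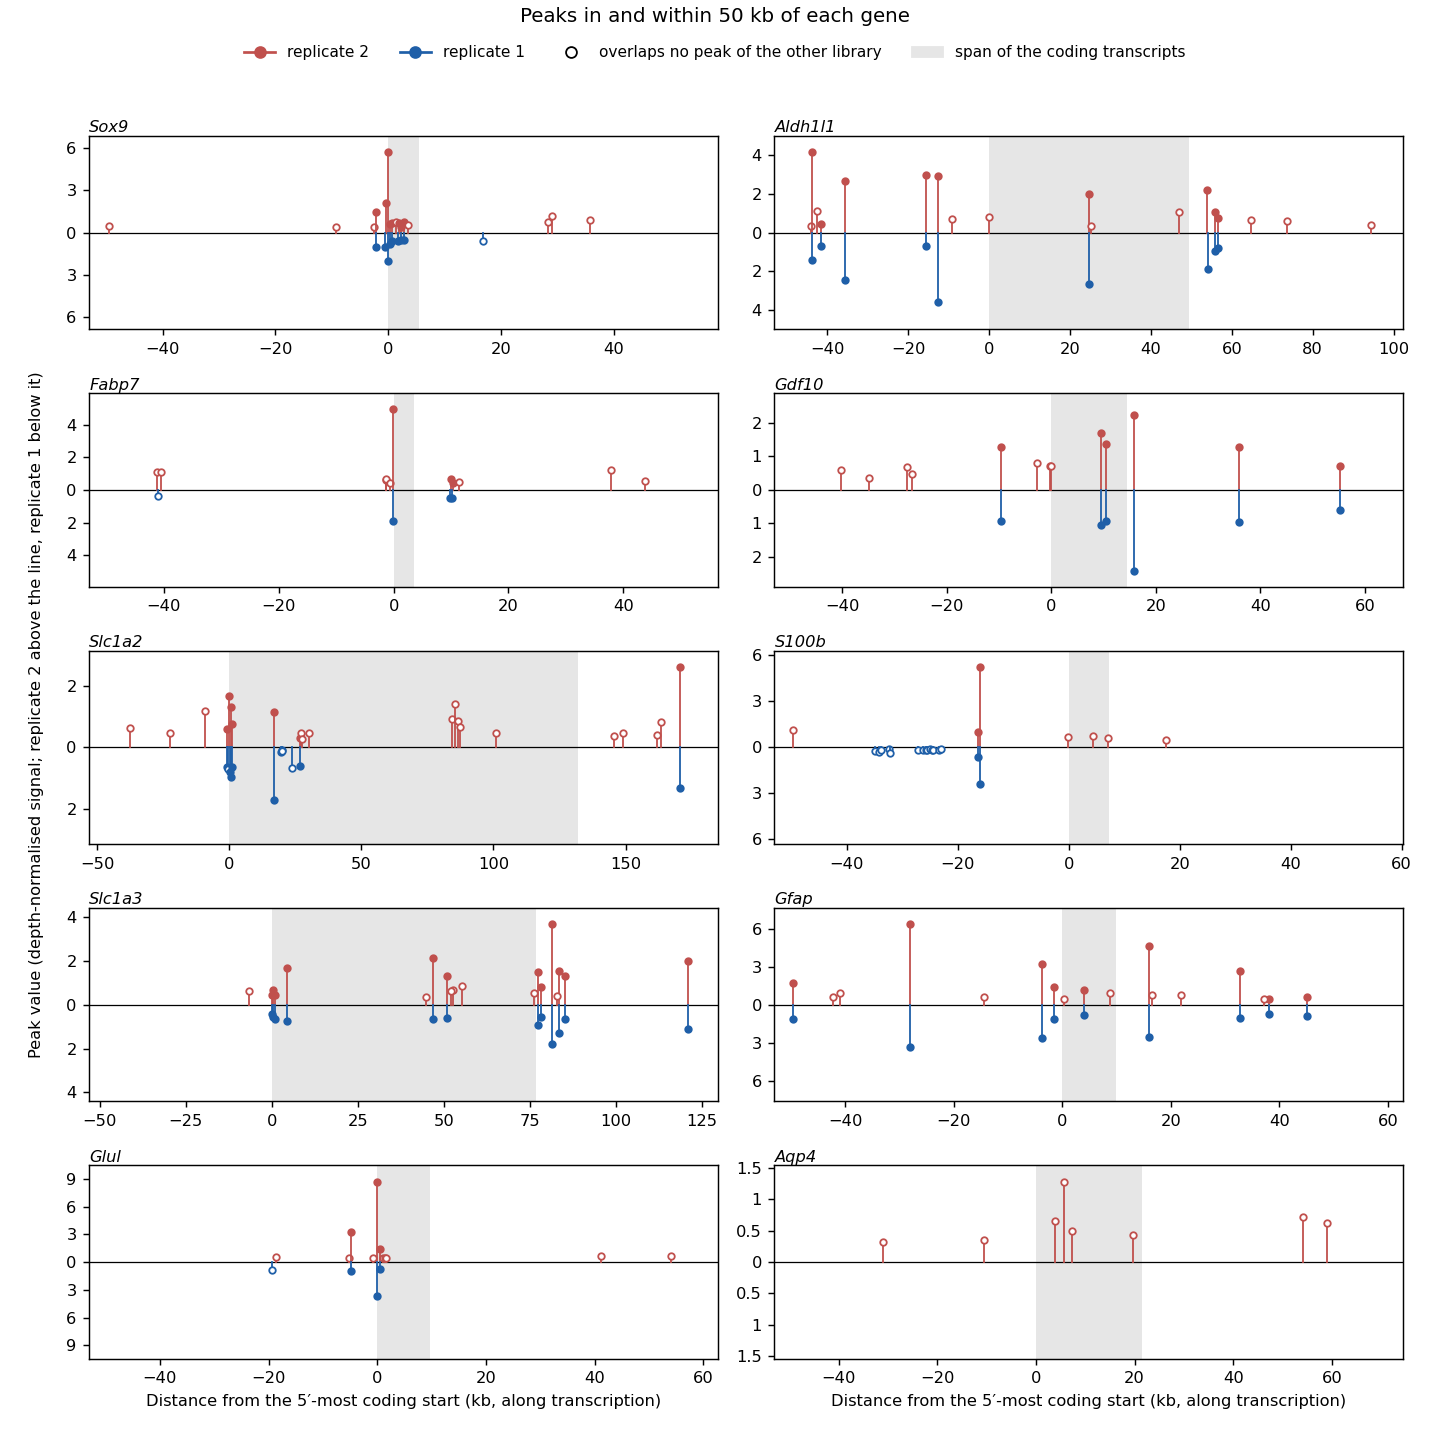
Peaks in each gene and 50 kb on either side, by distance from the 5′-most coding start in kb along transcription, with the value of each peak upward for replicate 2 (red) and downward for replicate 1 (blue). Filled circles overlap a peak of the other library, open circles do not, and grey marks the span of the coding transcripts. Aldh1l1, Gdf10 and Gfap have mirrored peaks away from the start with none in replicate 1 at the start, S100b has a run of low open circles of replicate 1, and Aqp4 has peaks of replicate 2 alone.

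The Sox9 and Fabp7 loci were dominated by their promoters. The Sox9 locus had 16 peaks in replicate 2 and 9 in replicate 1, of which 8 in each were shared, and 3 of the 4 shared distal peaks of replicate 2 lay within the gene. Its strongest shared distal peak, 2.2 kb upstream in an intron of the neighbouring RNA gene BC006965, had 1.48 in replicate 2 and 1.01 in replicate 1. The strongest Sox9 peaks of 1 library were at 1.17 in replicate 2, 29.0 kb downstream, and at 0.600 in replicate 1, 16.8 kb downstream. The Fabp7 locus had 11 peaks in replicate 2 and 4 in replicate 1, 3 of them shared, with 1 shared distal peak, 10.4 kb downstream in an intron of Smpdl3a, at 0.452 and 0.471. The strongest Fabp7 peak of replicate 2 alone, 37.8 kb downstream, had 1.20, more than that shared peak. The peak of replicate 1 alone, 41.1 kb upstream at 0.355, begins at the base after a replicate 2 peak ends, and counted as unshared because 0 bases overlap.

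The loci of the glutamate transporters Slc1a2 and Slc1a3 had the most peaks of replicate 2, 22 and 19. These are also the longest of the 10 genes, at 132.1 and 76.6 kb, so their loci are the widest. At Slc1a3, 12 of 12 peaks of replicate 1 overlapped one of the 19 in replicate 2. Of the 10 shared distal peaks, 4 lay within the gene and 6 beyond its end, where no gene is annotated. Of the 6, 5 stood together in 8.2 kb, from 8625441 to 8633660, the nearest 464 bp past the end of the gene and all 6 within 44.1 kb of it. The values at the 6 were between 0.818 and 3.67 in replicate 2 and between 0.542 and 1.79 in replicate 1, higher in replicate 2 at 6 of 6. The strongest of them, printed above, had 3.67 and 1.79 and was over 3 times as strong in either library as the Slc1a3 promoter itself. Within the gene the strongest shared peak of replicate 2, 46.8 kb past the start, had 2.12 in replicate 2 and 0.632 in replicate 1, and that of replicate 1, 4.4 kb past the start, had 1.67 and 0.729. The stricter list of each library held 1 more Slc1a3 peak that overlaps none of its less strict list, at 0.659 in replicate 2, 51.2 kb past the start, and at 0.871 in replicate 1, 81.1 kb past it.

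At Slc1a2, 7 of the 22 peaks of replicate 2 and 7 of the 12 of replicate 1 were shared. The strongest shared distal peak lay 170.7 kb past the start, in an intron of the neighbouring gene Cd44, at 2.63 in replicate 2 and 1.34 in replicate 1. Inside Slc1a2, a peak 16.8 kb past the start and over the start of its non-coding transcript Slc1a2-210 had 1.16 in replicate 2 and 1.72 in replicate 1, above the coding promoter in replicate 1 and below it in replicate 2. A further 4 peaks between 84.3 and 87.2 kb, from 0.679 to 1.40, were in replicate 2 alone. Replicate 1 alone had 3 very weak peaks between 19.5 and 20.1 kb, at 0.0839 to 0.148. Glul had a compact locus, with 11 peaks in replicate 2 and 4 in replicate 1. Its 1 shared distal peak, 4.8 kb upstream in an intron of Teddm2, had 3.27 in replicate 2 and 0.987 in replicate 1.

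Aldh1l1 had strong shared sites upstream of a promoter with no peak in replicate 1. Of its 8 shared distal peaks, 5 lay upstream, in introns of the non-coding transcript Aldh1l1-202, 1 within the coding gene and 2 in Slc41a3. The strongest by rank, 12.6 kb upstream and printed above, had 2.93 in replicate 2 and 3.54 in replicate 1, and a site 24.7 kb past the start had 1.99 and 2.62, both higher in replicate 1. The other strong upstream sites were at 4.14 and 1.39 (43.8 kb), 2.65 and 2.42 (35.6 kb) and 2.98 and 0.671 (15.5 kb) in replicates 2 and 1. Each of these 5 exceeded in replicate 2 the 0.805 of the Aldh1l1 promoter.

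Gdf10 also had shared sites away from a promoter with no peak in replicate 1. Of its 5 shared distal peaks, 1 lay upstream, 2 within the gene and 2 beyond its end. Its 6 peaks of replicate 1 each overlapped one of the 13 of replicate 2, and 1 of the 6 lay at the promoter of Zfp488. The strongest, 15.8 kb past the Gdf10 start and just beyond its end, had 2.23 in replicate 2 and 2.41 in replicate 1. The intronic sites at 9.5 and 10.5 kb had 1.71 and 1.38 in replicate 2 and 1.05 and 0.942 in replicate 1. The strongest Gdf10 peak of replicate 2 alone was at 0.818, 2.7 kb upstream.

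S100b, like Aqp4, had no shared distal peak and no shared peak at its own promoter. The 2 shared peaks of its locus lie at the promoter of the neighbouring gene Prmt2, an arginine methyltransferase, at 5.26 and 0.991 in replicate 2 and 2.39 and 0.626 in replicate 1. Replicate 2 alone had peaks 4.4 kb past the start in an S100b intron (0.758) and 49.7 kb upstream (1.16). The other 14 of the 16 locus peaks of replicate 1 stood in a run of 12.1 kb within Prmt2 (chromosome 10, 76218941 to 76231039), at values of 0.0968 to 0.342, and 13 of the 14 were in the stricter list. Under them replicate 2 had 0 intervals with an FDR under 0.05. Over the genome, peaks of the stricter list below 0.35, a limit chosen after seeing these values, made up 1.94% of the peaks of replicate 2 and 9.22% of those of replicate 1.

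At Gfap, 9 of 9 peaks of replicate 1 overlapped one of the 17 of replicate 2. Of the 9, 3 lay at promoters of neighbouring genes, including 6.36 in replicate 2 and 3.35 in replicate 1 at Kif18b, a kinesin of dividing cells. Upstream of Gfap the shared peaks at 3.8 kb and 1.4 kb had 3.19 and 1.42 in replicate 2 and 2.60 and 1.15 in replicate 1. The first covers the start of the non-coding transcript Gfap-203, and the second is the stretch printed above. Both exceeded the 0.419 at the coding start of replicate 2. A further shared site in the coding sequence, 4.1 kb past the start, had 1.18 and 0.781. The Aqp4 locus had 8 peaks in replicate 2 and 0 in replicate 1. The strongest of the 8, in an intron 5.7 kb past the 5′-most start, had 1.28, and 4 of the 8 were in the stricter list.

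Over the 59 shared peaks of the 10 loci the median log2 difference, replicate 2 minus replicate 1, was 0.45, against 0.61 over all 43923 shared peaks. It was 0.66 at the 12 shared peaks in the genes' own promoter windows, against 0.83 over all promoters, and 0.39 at the 39 shared distal peaks, against 0.48 over all distal peaks. Values were higher in replicate 2 at 44 of the 59 and lower at 15, where 79.3% of all shared peaks were higher in replicate 2. The lowest difference, -0.91, was at the intronic Slc1a2 site 26.8 kb past the start, and the highest, 2.15, at the Aldh1l1 site 15.5 kb upstream. Where a peak of the loci was in replicate 2 alone, replicate 1 had an interval with an FDR under 0.05 at 4 of 83 (4.82%), against 4.15% of all such peaks. The reverse held for 3 of the 22 of replicate 1 alone (13.6%), against 14.9%.

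**Figure D3:**
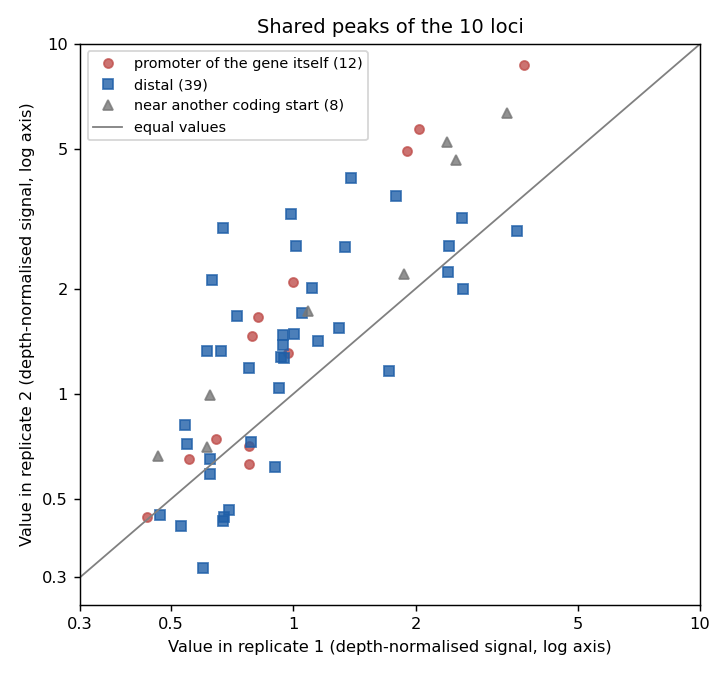
Values of the 59 shared peaks of the 10 loci in replicate 2 (vertical, log axis) and replicate 1 (horizontal, log axis), in depth-normalised signal, with promoter peaks of the genes as circles, distal peaks as squares and peaks near another coding start as triangles. The line marks equal values, and 44 of the 59 lie above it.

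The CpG content of the promoters, which the choice of genes did not use, was read over the 500 bp on either side of the 5′-most coding start. The 5 genes open in replicate 2 alone had a median of 28 CpG, from 8 in Aqp4 to 88 in Gdf10, and the 5 open in both a median of 70, from 13 in Fabp7 to 79 in Slc1a2. The medians over all genes of those classes were 28 and 63. The 5′-most start of Aqp4 had no peak in either library, so its 8 CpG do not describe the start at which it was open. Gdf10 stood apart: it fell in class 9 of 10, in which 97.1% of genes were open in replicate 2, 93.5% in replicate 1 and 3.88% in replicate 2 alone. Fabp7 and S100b, both in class 3, where 27.6% were open in replicate 2 and 19.4% in replicate 1, had 13 and 11 CpG and promoter values of 4.94 and 0.672 in replicate 2.

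**Figure D4:**
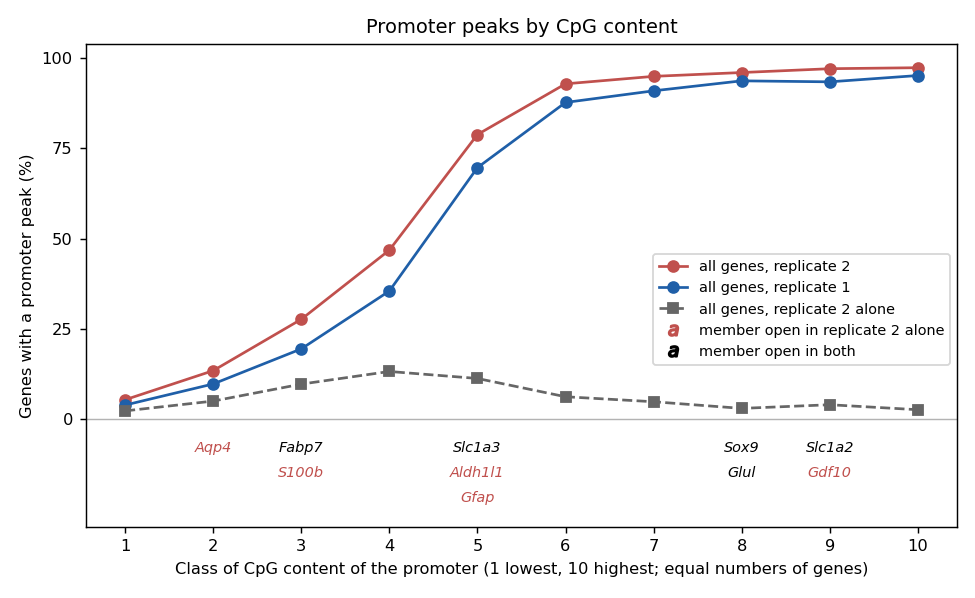
Percent of all genes with a promoter peak in replicate 2 (red), in replicate 1 (blue) and in replicate 2 alone (grey dashes) in 10 classes of promoter CpG content with equal numbers of genes, from lowest to highest. Gene names below the axis mark the class of each of the 10 genes, in red for replicate 2 alone and in black for both. Gdf10 stands in class 9, and Aqp4, S100b, Aldh1l1 and Gfap in classes 2, 3 and 5. The class of Aqp4 is that of its 5′-most start, which had no peak in either library.

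Short consensus sequences were searched on both strands in the 250 bp before to 50 bp after each 5′-most coding start and in the central 200 bp of shared distal peaks. A CCAAT box was present at 7 of the 10 promoters (Sox9, Fabp7, Slc1a3, Glul, Aldh1l1, S100b and Aqp4), against 38.8% of all promoters. The Aqp4 box is at its 5′-most start, which had no peak in either library. The GC box was present at 4 of 10, against 44.2%. The CCAAT box, the STAT core and the CTCF core were added after the sequences were seen. Footprints are short protected gaps in the cuts, and a match was counted when it overlapped one by at least 1 base. In Sox9 the CCAAT and ATTGG boxes, 105 and 60 bp before the start, overlapped footprints of replicate 2 alone. The Fabp7 box 12 bp before the start overlapped footprints of both libraries. The Fabp7 E-box and the RBPJ core printed for Slc1a3 overlapped footprints of replicate 2 alone. The other Fabp7 CCAAT box, 82 bp before the start, overlapped none, and neither did the 2 boxes printed for Aldh1l1. The CTCF core, from the recognition sequence of the insulator protein CTCF, matched in 14 of the 39 shared distal peaks, against 31.6% of all. The matches printed for Glul and Aldh1l1 overlapped footprints of both libraries. At the Gfap site the STAT core TTCCGAGAA, known in rodents as a STAT3 site of astrocyte differentiation, and the AP-1 site overlapped no footprint. The SOX consensus ACAATG was in 6 of the 39, at Slc1a2 and Slc1a3, against 8.07% of all, the RBPJ core GTGGGAA in 4 of 39, at Slc1a3 and Gfap, against 5.17%, and the palindromic NFI site in 0 of 39 and 0 of 10 promoters, against 0.157% and 0.0277% of all. Of the other sites, the GC box was in 1 of the 39, against 15.4% of all, and the CCAAT box in 4, against 23.1%. The E-box CAGCTG was in 5, against 19.1%, and the homeodomain consensus TAATTA in 0, against 2.79%. The STAT core was in 2 of the 39, against 5.27%. The AP-1 site was in 2, against 4.99%, and the E-box CAGATG in 8, against 19.3%. A match describes letters in a window and does not show binding.

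A further list of 31 astrocyte and Bergmann glia genes showed 30 promoters open in replicate 2 and 21 in replicate 1, against 65% and 59.9% of all genes. In the stricter list 28 and 13 were open, against 60.8% and 52.7%. At equal numbers of strongest peaks 28 and 21 were open, against 58.8% and 59.9%. In the less strict list, those open in replicate 2 alone included Nes (1.30), Slc7a10 (0.585), Hepacam (1.16), Mlc1 (1.02), Fgfr3 (1.31) and Itih3 (0.712). The gap junction genes Gja1 (0.679) and Gjb6 (0.273) were also among them, and Dao was open in neither library. Of all genes, 6.1% were open in replicate 2 alone. The highest by mean rank were Etv5 (12.1 in replicate 2 and 4.21 in replicate 1), Id4 (9.28 and 3.37), Clu (7.48 and 3.27) and Etv4 (9.57 and 2.37). Etv4 and Etv5 encode transcription factors that act downstream of fibroblast growth factor, and Id4 an inhibitor of basic helix-loop-helix factors. The lowest of those open in both were Slc4a4 (0.905 and 0.619), Sparcl1 (1.33 and 0.761), Slc6a11 (0.865 and 0.993) and Tnc (2.31 and 0.516). The median log2 difference over the 21 was 1.02, against 1.02 over all genes open in both.

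Lists of other cells were counted in the same way. In the list of 8 endothelial and mural genes, 6 promoters had a peak in replicate 2 and 3 in replicate 1 (summed values 7.30 and 2.97, Pecam1 open in neither), and meningeal genes at 4 of 6 and 2 of 6 (3.51 and 1.77, Twist1 and Dcn open in neither). With each library held to the same number of strongest peaks, the endothelial and mural list had 2 open in replicate 2 and 3 in replicate 1, and the meningeal list 2 in each. At those equal numbers the forebrain list stayed at 12 and 4, the hindbrain Hox list had 2 and 5, and the granule lineage list 6 in each. Purkinje cell genes were open at 4 of 6 and 5 of 6 (7.89 and 5.78, Pcp2 in neither), and oligodendrocyte lineage genes at 4 of 8 in each (7.36 and 4.67, with Sox10, Cspg4 and Mog among those in neither). Microglial genes were open at 0 of 6 in each library, and housekeeping genes at 8 of 8 in each, with summed values of 74.8 and 31.3. The summed promoter value of the 10 astroglial genes was 24.8 in replicate 2 and 9.17 in replicate 1. The part of these other cells in the difference at the 10 genes was not tested.

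**Figure D5:**
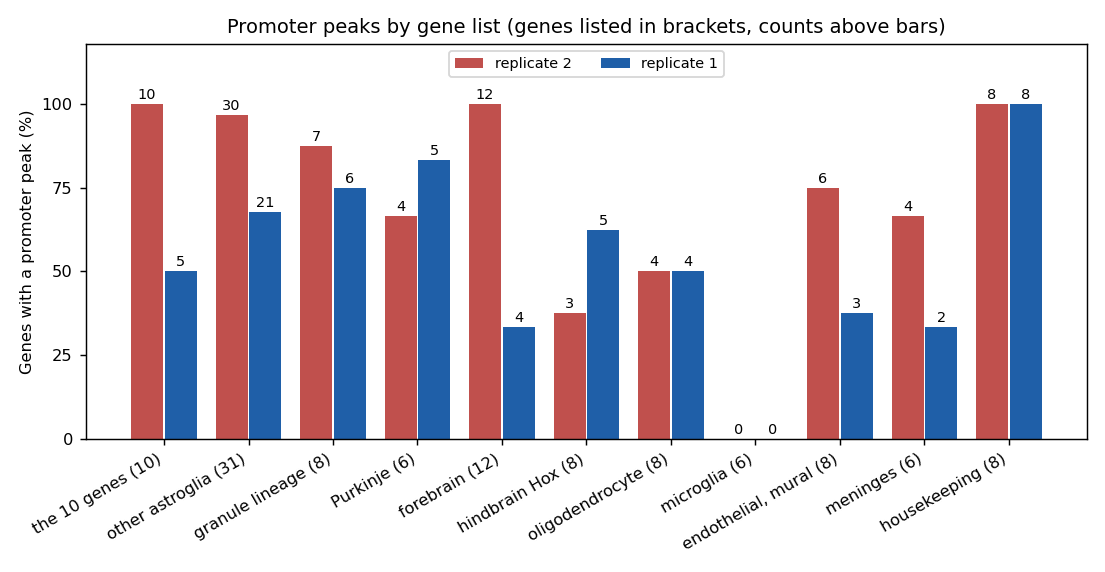
Percent of the genes of each list with a promoter peak, in replicate 2 (red, left bar) and replicate 1 (blue, right bar), with the number of genes above the bar and the size of the list in brackets. The 10 genes described here have 10 open in replicate 2 and 5 in replicate 1, the forebrain list has 12 and 4, and the housekeeping list 8 and 8.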

How the data were processed

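DNase-seq of 4-day cerebellum was deposited as 2 libraries of 1 group. Per the labels, both were aligned to mm10, and per the description files each peak list was called on 1 library alone. The deposited peak value is a signal normalised for depth by the authors. The sources used here do not give the factor, aligner or caller. Within 0.05 steps, values were whole multiples of 1 step (replicate 2, 0.00665; replicate 1, 0.00645). Exact 95% Poisson intervals take a step as 1 cut and cover counting error only. The deposited FDR (q-value) intervals are those under 0.05, and the authors' footprints were used as positions.

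The 10 genes and the marker lists were chosen with earlier results of these data known, so no p-value was computed. Starts came from GENCODE M21 on GRCm38, with 0 peaks past a chromosome end, and sequences from RefSeq GRCm38.p6. The longer peak list of each library, called less strict, was the main one, and peaks were shared at an overlap of 1 bp. The lists were told apart by length alone, because the sources used here give no thresholds. Absence from the shorter list is therefore not shown to mean weaker evidence. Named genes were the 10, of the further astroglial list the 4 highest and 4 lowest by mean rank and those open in 1 library alone (some are not reported here), and per locus the promoter peaks and the strongest distal peak shared or of 1 library; other peaks and neighbouring genes were named after their values were seen. Scripts ran in Python 3 (numpy, scipy, pysam, samtools), and overlap counting was tested on simulated peaks. No per-sample column was left unused.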

Additional observations from a re-analysis of the deposited data

How the results depend on the processing

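No paired analysis was possible because the study has 1 group. The promoter counts of the 10 genes were the same within 1.5 times with windows of 1000 and 250 bp and with the 5′-most start alone. The genes open in replicate 2 alone were 3 in the stricter list and 3 when both libraries were cut to their 61896 strongest peaks, against 5. At equal numbers Gfap, Aqp4 and Slc1a3 were not open in replicate 2, and 1 gene, Slc1a3, was open in replicate 1 alone, against 0. Without 1 library, 5 to 10 genes were open. Replicate 2 had 78 locus peaks at equal numbers. The stricter list itself holds 41 locus peaks in replicate 1, 25 of them shared, and 1 of the 41, at Slc1a3, overlaps no peak of the less strict list. With a flank of 100 kb, replicate 1 had 143. Without the run beside S100b replicate 1 had 67, an alternative added after seeing the data. The median log2 difference of the promoters was 0.54 after division by each library's median of shared peaks. Of 15 promoter values, 3 moved outside their interval when the peak nearest to the start was taken. With 2 libraries and unknown depth, a promoter without a peak was not detectable in that library and is not shown to be closed.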
